A study of Mus musculus with 11 samples.

Results

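Leiomodins and tropomodulins form one family of actin-binding proteins, and its 7 mouse genes (Lmod1, Lmod2, Lmod3, Tmod1, Tmod2, Tmod3 and Tmod4) are described here across 3 groups of hearts. They were found by gene name among the 54532 genes of the count table, and the family was chosen by measured values: Lmod3 was lower in the diabetic model than on chow. That contrast therefore describes the genes and tests none of them. All 7 genes passed the filter on low counts, which left 14862 genes for testing. The hearts came from C57BL/6 mice with a labelled time of 26 weeks. There were 3 chow libraries and 4 HFD+STZ libraries. The METTL3 group held 4 libraries from mice that had the HFD+STZ treatment and also METTL3 by AAV, so the first 2 treatments are shared by both diabetic groups. HFD commonly stands for high-fat diet, STZ for streptozotocin, which destroys pancreatic beta cells, and AAV for an adeno-associated virus, although the labels do not spell them out. They do not say which promoter drove METTL3, or whether the HFD+STZ mice had a control virus. METTL3 encodes the methyltransferase that places m6A marks on RNA.

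In striated muscle the thin filaments of the sarcomere have a slow-growing pointed end that faces the middle of the sarcomere. Tropomodulins cap that end together with tropomyosin and limit the exchange of actin subunits there. Leiomodins share much of the tropomodulin fold but carry an extra actin-binding region, nucleate actin filaments and favour longer thin filaments. Lmod2 is the main leiomodin of heart muscle, Lmod3 is best known from skeletal muscle, where its loss causes nemaline myopathy, and Lmod1 is the leiomodin of smooth muscle. Tmod1 is the tropomodulin of heart muscle and red cells, Tmod2 that of neurons, Tmod3 is found in many tissues, and Tmod4 is typical of fast skeletal muscle.

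The libraries held 13900531 to 16952639 counts, of which 9.28% to 45.5% came from mitochondrial genes. This share was 9.28% to 27.4% on chow, 28.6% to 32.5% in HFD+STZ and 37.7% to 45.5% in METTL3. It thus differed between the groups without overlap. Chow replicate 3 stood apart: it had the lowest mitochondrial share and counts in 15734 genes, against 17317 to 20769 in the other libraries. Mettl3, the check of the labels, was at 3.04 to 7.88 CPM on chow, 4.39 to 7.82 CPM in HFD+STZ and 6.52 to 10.8 CPM in the libraries labelled METTL3, where CPM is the unit of sequencing counts scaled for library size by TMM. Its log2 fold change between METTL3 and HFD+STZ was 0.40 (SE 0.32, edgeR adjusted p = 0.759), so every direction given for that group rests on its label. The 11 heart muscle markers summed to 38140 to 54270 CPM, and each was detected. The 6 atrial markers summed to 50.8 to 141.9 CPM on chow, 29 to 140.6 in HFD+STZ and 27.7 to 93.8 in METTL3. Myl7, an atrial marker, ran from 0 to 634 counts per library, so atrial RNA was uneven between libraries. Its part in the members' values was not tested. The libraries carry sample codes in a low and a high range. All chow libraries, HFD+STZ replicate 1 and METTL3 replicate 4 are in the high range. The sources used here do not give what the ranges stand for. The labels do not tie replicates to separate animals, so p-values rest on the spread between libraries of a group, which may be technical. In bulk tissue, fewer cells of a type and less RNA per cell cannot be told apart.

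The genes lie on 5 chromosomes of the mm10 build. Lmod1 (ENSMUSG00000048096) spans bases 135324807 to 135368065 of chromosome 1 on the plus strand. Lmod2 (ENSMUSG00000029683) spans 24597762 to 24605414 of chromosome 6 on the plus strand, and Lmod3 (ENSMUSG00000044086) spans 97238534 to 97252759 of the same chromosome on the minus strand. Each leiomodin gene has a single annotated transcript of 3 exons, with 3948 exonic bases in Lmod1, 1976 in Lmod2 and 2215 in Lmod3. The longest coding transcript of each tropomodulin gene has 10 exons. Tmod1 (ENSMUSG00000028328) spans 46038935 to 46116032 of chromosome 4 on the plus strand, and Tmod4 (ENSMUSG00000005628) spans 95124476 to 95129209 of chromosome 3 on the plus strand. Tmod2 (ENSMUSG00000032186, 75565621 to 75611325) and Tmod3 (ENSMUSG00000058587, 75497707 to 75559657) are neighbours on the minus strand of chromosome 9, with 5963 bases between them. No run of 31 bases is shared between the transcripts of any members, so reads of that length cannot be split among them. With other genes Tmod3 shares 2.59% of such runs, Tmod2 0.42% and Tmod1 31.9%, the last through Tstd2 on the opposite strand.

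Leiomodin genes are known targets of serum response factor (SRF) and its myocardin-family partners, and the genes of that pathway are measured further on. The 250 bases before the RefSeq transcription start are shown for Lmod1 and Lmod2, the leiomodins that differ most in level (RefSeq, GRCm38.p6, the same build as mm10, 5′ to 3′ on the plus strand). Of the 7 members, 5 matched the RefSeq table, all but Lmod3 and Tmod3. Capitals mark matches to the CArG box, the SRF motif, with 1 mismatch.
Lmod1, chr1:135324563-135324812: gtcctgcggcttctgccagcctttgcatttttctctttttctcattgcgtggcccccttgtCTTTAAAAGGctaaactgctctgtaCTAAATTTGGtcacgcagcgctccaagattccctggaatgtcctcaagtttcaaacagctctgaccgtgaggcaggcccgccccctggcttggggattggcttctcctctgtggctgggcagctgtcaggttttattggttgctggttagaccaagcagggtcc
Lmod2, chr6:24597521-24597770: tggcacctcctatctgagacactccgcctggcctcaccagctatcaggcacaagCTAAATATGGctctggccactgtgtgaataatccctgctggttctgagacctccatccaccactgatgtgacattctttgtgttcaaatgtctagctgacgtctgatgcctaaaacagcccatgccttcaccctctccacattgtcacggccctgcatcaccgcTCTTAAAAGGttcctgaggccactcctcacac
Each of these windows held 2 such matches, and none of the windows of Tmod1, Tmod2 and Tmod4 held one. On both strands 17.46% of all 32851 windows of this length held at least 1. An exact CArG box, found in 1.47% of windows, and an exact MEF2 site, found in 2.92%, were in no member's window. A match describes letters only, and no match says only that these letters are not in the window.

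Lmod3 was the 1 member whose libraries did not overlap between HFD+STZ and chow. Its level was 90.8, 92.4 and 85.1 CPM in the 3 chow hearts, and 47.5, 29.2, 36.9 and 42.2 CPM in the 4 HFD+STZ hearts. Every HFD+STZ heart was below every chow heart by at least 37.6 CPM. These are the values that chose the family. Of all tested genes, 10.4% did not overlap between these groups and 4.88% were without overlap and lower in HFD+STZ. Averages were 89.4 ± 3.82 CPM (SD, n = 3) for chow against 38.9 ± 7.80 CPM (SD, n = 4) for HFD+STZ, a log2 fold change of -1.20 (SE 0.19) or 2.30-fold lower. The counts behind these levels were 1512 to 1753 per chow library and 480 to 850 per HFD+STZ library. The chow hearts lay close together: the SD of log2 CPM was 0.06, against 0.46 for the median gene. In that contrast 0.168% of genes were called at an adjusted p under 0.05, and 0.0336% were called as lower. Without chow replicate 3 the log2 fold change was -1.23, and with the code range as a covariate it was -0.93. Within the high code range the chow hearts held 85.1 to 92.4 CPM. HFD+STZ replicate 1, the only library of its group in that range, held 47.5 CPM, the highest value of its group. The low range holds no chow heart.

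In the METTL3 hearts Lmod3 lay in much the same range as in HFD+STZ. It measured 46.6, 37.7, 35.2 and 50.4 CPM, so the highest METTL3 library was just above the highest HFD+STZ library and the groups overlapped. The mean was 42.5 ± 7.23 CPM (SD, n = 4). Relative to HFD+STZ, Lmod3 differed by 0.13 on the log2 scale (SE 0.18, 95% interval -0.26 to 0.51), with an edgeR quasi-likelihood Benjamini-Hochberg adjusted p of 0.886. This contrast shares the HFD+STZ libraries with the contrast that picked the gene.

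Against chow, Lmod3 fell by 1.07 on the log2 scale in METTL3 hearts (SE 0.19, 95% interval -1.49 to -0.66, edgeR adjusted p = 0.0202). All 4 METTL3 hearts lay below all 3 chow hearts, by at least 34.7 CPM. The call shares its chow libraries with the contrast that picked Lmod3 and is not independent of it. In METTL3 versus chow 3.20% of genes were called, 1.37% as lower, and 8.26% were lower without overlap. The adjusted p was 0.0688 without chow replicate 2, 0.0704 without METTL3 replicate 3 and 0.174 with the code range as a covariate (log2 fold change -0.81). METTL3 replicate 4, the only library of its group in the high code range, held 50.4 CPM, the highest value of its group. That was below the 85.1 to 92.4 CPM of the chow hearts, which are all in that range. Without chow replicate 3 the edgeR adjusted p was 0.00941 (log2 fold change -1.12).

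Several genes of skeletal muscle, the tissue Lmod3 is best known from, also had lower means in the diabetic hearts, and others had higher means. Without Ckm, which heart muscle makes as well, the markers of that tissue summed to 9.91 to 16.7 CPM on chow, 2.19 to 11.9 in HFD+STZ and 1.65 to 10.8 in METTL3, so the groups overlapped through chow replicate 3. Of the 12 markers of that tissue 4 passed the filter (Ckm, Mylpf, Tnnt3 and Casq1), and their median log2 fold change was -1.03 for HFD+STZ against chow and -1.44 for METTL3 against chow, with 3 and 4 of them below 0. Mylpf, the fast regulatory myosin light chain, was the 1 called, lower in METTL3 than on chow, on 0 to 45 counts per library. In that direction 1.37% of all genes were called. Casq1, the calcium store protein of fast fibres, measured 9.38, 13.6 and 3.49 CPM on chow, 0.790 to 9.44 in HFD+STZ and 1.10 to 8.91 in METTL3, so its groups overlapped. Tnnt1, slow troponin T, was at -1.89 (SE 0.64) and -2.14 (SE 0.65), and Tpm2, a tropomyosin, at -1.49 (SE 0.45) and -1.35 (SE 0.45) in those 2 comparisons, and neither was called. Both were highest in chow replicate 3. Tnnt1 was at 20.3 CPM there against 3.23 and 4.87 in the other chow hearts, and Tpm2 at 117.6 CPM against 29.6 and 35.1. In the same library Mylpf and Tnnt3 had their highest chow values and Casq1 its lowest. Lmod3 measured 85.1 CPM there, against 90.8 and 92.4. Other genes of that tissue had higher means in both diabetic groups than on chow. In the same 2 comparisons the troponin gene Tnni1 was at 2.53 and 3.26 (SE 1.3 in both), not called, on 0 to 23 counts per library. Klhl41, measured further on, was at 0.42 and 0.39, and Tmod4 at 0.55 and 0.51. Neb was at 0.34 and -0.15. The part of skeletal muscle RNA in the Lmod3 values was not tested.

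**Figure D1:**
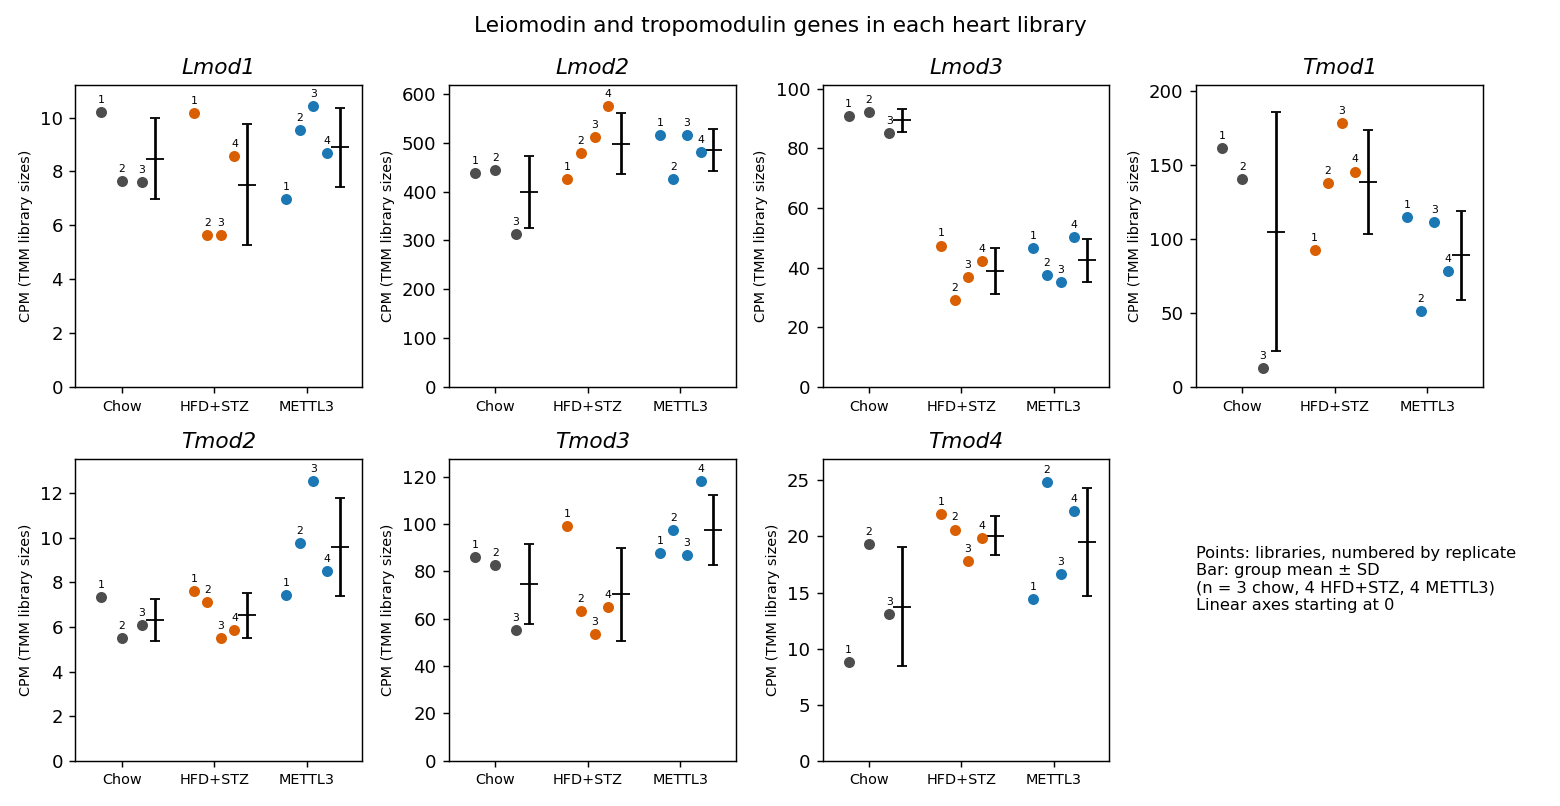
Level of each family gene in every heart library (y axis, CPM on TMM library sizes, linear and starting at 0), with points numbered by replicate and bars for the group mean and SD (3 chow, 4 HFD+STZ and 4 METTL3 libraries). The 3 chow points of Lmod3 (85.1 to 92.4 CPM) stand above all diabetic points (29.2 to 50.4 CPM), and chow replicate 3 is alone at the bottom of the Tmod1 panel (12.7 CPM).

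Lmod2, the main leiomodin of the heart, did not share this pattern. It measured 438.8, 444.7 and 313.4 CPM on chow, and 425.0, 479.7, 511.6 and 575.7 CPM in HFD+STZ. The lowest value was chow replicate 3, and the groups overlapped. The means were 399 ± 74.2 CPM (SD, n = 3) and 498 ± 63.0 CPM (SD, n = 4), a log2 fold change of 0.32 (SE 0.19), which was 0.18 without chow replicate 3. METTL3 hearts held 515.3, 425.5, 516.2 and 481.2 CPM, all within the HFD+STZ range. Lmod2 differed by -0.04 from HFD+STZ (log2, SE 0.17, 95% interval -0.41 to 0.33, adjusted p = 0.971) and by 0.28 from chow (SE 0.19, adjusted p = 0.408), and neither passed.

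Lmod1, the smooth muscle leiomodin, was a low transcript with 81 to 197 counts per library. It measured 10.2, 7.63 and 7.60 CPM on chow, 10.2, 5.65, 5.65 and 8.58 CPM in HFD+STZ, and 6.97, 9.53, 10.4 and 8.69 CPM in METTL3. The 3 groups overlapped. Its log2 fold change was -0.17 (SE 0.26) for HFD+STZ against chow, 0.24 (SE 0.25, adjusted p = 0.814) for METTL3 against HFD+STZ and 0.07 (SE 0.26, adjusted p = 0.909) for METTL3 against chow. The 8 smooth muscle markers, such as Myh11, summed to 440.7 to 629.6 CPM on chow, 403.7 to 529.0 in HFD+STZ and 373.3 to 540.8 in METTL3. These ranges overlap as those of Lmod1 do.

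Tmod1 was the member with the widest spread, and most of it came from 1 library. The pointed-end cap of heart muscle measured 162 and 140.9 CPM in chow replicates 1 and 2, and 12.7 CPM in replicate 3. Its HFD+STZ levels were 92.8, 137.8, 178.8 and 145.9 CPM, and its METTL3 levels 115.3, 51.4, 111.5 and 78.3 CPM. Chow replicate 3 was 11.96-fold below the mean of the other chow hearts, on 225 counts against 3127 and 2620. Of all tested genes, 7.37% were at least as low there relative to the other chow hearts. The SD of log2 CPM on chow was 2.06, a spread that 2.42% of genes exceeded. In the same library Lmod3 was at 92.9% and Lmod2 at 70.9% of the other chow hearts.

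The group means of Tmod1 were 105 ± 80.8 CPM on chow (SD, n = 3), 139 ± 35.4 CPM (SD, n = 4) in HFD+STZ and 89.1 ± 30.1 CPM (SD, n = 4) in METTL3. The log2 fold change of HFD+STZ against chow was 0.40 (SE 0.58), and it was -0.12 without chow replicate 3. METTL3 against HFD+STZ gave -0.64 (SE 0.54, 95% interval -1.80 to 0.53, adjusted p = 0.773), and -0.65 (adjusted p = 0.196) without that library. METTL3 against chow gave -0.24 (SE 0.58, adjusted p = 0.852), and -0.77 (adjusted p = 0.126) without it. None of these passed the threshold. The group of 2 remaining chow hearts had a mean of 151 ± 14.98 CPM (SD, n = 2).

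Tmod1 is also a gene of red cells, and blood differed between hearts. The 9 erythroid markers, mostly globin genes, summed to 565.7, 474 and 2456 CPM in chow replicates 1 to 3, to 654.6 to 1259 CPM in HFD+STZ, and to 641.6, 2153, 435.4 and 1244 CPM in METTL3. The libraries lowest in Tmod1 within chow and within METTL3, replicates 3 and 2, were the ones highest in these markers. In HFD+STZ, replicate 1 was lowest in both. Tstd2, the gene on the opposite strand that shares 1287 of the 3946 exonic bases of Tmod1 (32.6%), measured 11.9, 8.82 and 0.676 CPM on chow, the last on 12 counts. It was at 6.55 to 7.78 CPM in HFD+STZ and 5.91 to 8.38 CPM in METTL3. The sources used here do not give the strand setting of the counting, so reads of the shared stretch cannot be told apart. The part of blood, of the overlap or of that library in the Tmod1 values was not tested.

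Tmod2, the neuronal tropomodulin, was the least abundant member per base, on 79 to 166 counts per library. It measured 7.36, 5.48 and 6.08 CPM on chow, 7.59, 7.11, 5.51 and 5.84 CPM in HFD+STZ, and 7.44, 9.78, 12.5 and 8.51 CPM in METTL3. The METTL3 hearts lay above all chow hearts by only 0.0844 CPM and overlapped HFD+STZ through replicate 1. Means were 6.51 ± 0.999 CPM in HFD+STZ (SD, n = 4) and 9.57 ± 2.20 CPM in METTL3 (SD, n = 4). The log2 fold change between them was 0.55 (SE 0.22, unadjusted p = 0.0286) and did not pass, with an edgeR adjusted p of 0.511. Against chow it was 0.60 (SE 0.24, unadjusted p = 0.0289, edgeR adjusted p = 0.175). With limma voom the latter was called (adjusted p = 0.0258). Neuronal and Schwann cell markers, 10 genes, summed to 22.6 to 74.3 CPM on chow, 31.9 to 54.3 in HFD+STZ and 34.3 to 59.0 in METTL3.

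Tmod3, the widely expressed tropomodulin, gave values of 86.1, 82.5 and 55.3 CPM on chow and 99.0, 63.3, 53.7 and 65.0 CPM in HFD+STZ. The METTL3 hearts measured 87.6, 97.4, 86.8 and 118 CPM. They lay above all chow hearts, by a gap of 0.686 CPM, and above HFD+STZ except for its replicate 1. The log2 fold change was 0.47 against HFD+STZ (SE 0.22, unadjusted p = 0.0473, edgeR adjusted p = 0.544) and 0.39 against chow (SE 0.23, edgeR adjusted p = 0.359). The latter was 0.20 without chow replicate 3, 0.20 with limma voom and 0.79 with the code range as a covariate. It was called against HFD+STZ with limma voom (0.59, adjusted p = 0.0459), and without chow replicate 3 and HFD+STZ replicate 1 together (0.67, adjusted p = 0.0319). HFD+STZ against chow differed by -0.09 (SE 0.23).

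Tmod4, typical of fast skeletal muscle, measured 8.81, 19.4 and 13.1 CPM on chow, 22.002, 20.6, 17.8 and 19.8 CPM in HFD+STZ, and 14.4, 24.8, 16.6 and 22.2 CPM in METTL3. Its groups overlapped through chow replicate 2. The log2 fold change was 0.55 (SE 0.26) for HFD+STZ against chow, -0.04 (SE 0.24, adjusted p = 0.981) for METTL3 against HFD+STZ and 0.51 (SE 0.26, adjusted p = 0.287) for METTL3 against chow. The fast skeletal myosins Myh1, Myh2 and Myh4 had 0 to 5 counts in any library, and Tnnc2, the fast troponin C, had 0 in every library. The sum of the 12 skeletal muscle markers, 502.2 to 1106 CPM, was almost entirely Ckm (492.3 to 1104 CPM), a creatine kinase that heart muscle also makes. On Tmod4 in HFD+STZ against chow single libraries weighed heavily: the log2 fold change was 0.32 without chow replicate 1, 0.90 without chow replicate 2 and 0.26 with limma voom.

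**Figure D2:**
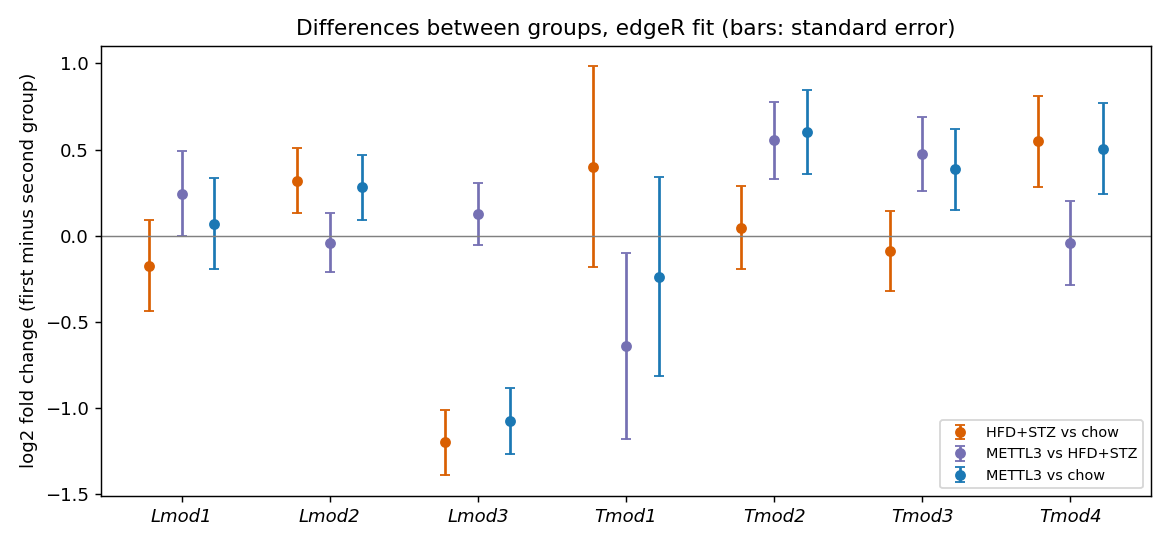
Log2 fold change of each family gene in the 3 comparisons (y axis, first minus second group, edgeR fit, bars show the standard error). Lmod3 lies at -1.20 and -1.07 against chow and at 0.13 between the diabetic groups, and the bars of Tmod1 are the widest (SE 0.54 to 0.58).

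Over the family, METTL3 against HFD+STZ called 0 of 7 members with edgeR, where 0% of all genes were called (0 genes, with 1346 at an unadjusted p under 0.05). DESeq2 called 139 genes and 0 members, and limma voom 395 genes and 1 member, Tmod3. At an unadjusted p under 0.05 there were 2 of 7 members, against 9.06% of genes. The members' groups overlapped in all 7 cases, while 9.57% of genes did not overlap. METTL3 against chow called 1 of 7, Lmod3, as lower, beside 3.20% of all genes called and 1.37% called as lower. That call shares its chow libraries with the contrast that picked Lmod3. The METTL3 and chow groups did not overlap for 3 of 7, Lmod3 below and Tmod2 and Tmod3 above. Of all genes, 18.7% did not overlap in either direction and 10.5% with METTL3 higher. The median log2 fold change of the members was 0.05 for HFD+STZ against chow, 0.13 for METTL3 against HFD+STZ and 0.28 for METTL3 against chow, beside medians of -0.02, -0.00 and -0.01 over all tested genes.

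Levels of different genes can be compared only per length, here as CPM per kilobase of all annotated exons. This scale understates genes expressed mainly as shorter transcripts: the longest coding transcript of Tmod3 has 3667 of 11151 exonic bases. Lmod2 led in every library, with a mean of 236 ± 34.8 CPM per kilobase (SD, n = 11). Tmod1 (28.3 ± 12.6) and Lmod3 (24.4 ± 10.7) followed and overlapped each other. Tmod4 (10.6 ± 2.71) overlapped the lowest libraries of Lmod3 (13.2 against 14.5 at most), and Tmod3 (7.29 ± 1.81) overlapped Tmod4. Lmod1 (2.10 ± 0.439) and Tmod2 (0.648 ± 0.181) came last, and their ranges did not overlap each other.

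The order of Lmod3 and Tmod1 by group mean was not the same in the groups. On chow Lmod3 stood at 40.4 ± 1.73 CPM per kilobase (SD, n = 3) and Tmod1 at 26.7 ± 20.5. In chow replicates 1 to 3 Tmod1 was at 41.1, 35.7 and 3.21, and Lmod3 at 41.0, 41.7 and 38.4. The genes were thus level in replicate 1, and the gap on chow was by far the largest in replicate 3. In HFD+STZ Lmod3 was at 13.2 to 21.4 and Tmod1 at 23.5 to 45.3, so the genes did not overlap. In METTL3 Lmod3 was at 15.9 to 22.8 and Tmod1 at 13.0 to 29.2, and they overlapped. The test of this change in order was not made, since Lmod3 was picked for its fall.

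Ratios within a library do not depend on the scaling between libraries. Lmod3 counts were 20.7%, 20.8% and 27.2% of Lmod2 counts on chow, 11.2%, 6.08%, 7.21% and 7.33% in HFD+STZ, and 9.05%, 8.86%, 6.82% and 10.5% in METTL3. Every chow heart was above every diabetic heart on this ratio too, and the METTL3 hearts lay within the HFD+STZ range. Per kilobase, there was 4.13 to 5.42 times as much Lmod2 as Lmod3 on chow, 10.04 to 18.4 times in HFD+STZ and 10.7 to 16.5 times in METTL3. This is the same contrast and the same gene that chose the family, so the ratio is a description.

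Tmod1 counts were 36.9%, 31.7% and 4.04% of Lmod2 counts on chow, 21.8%, 28.7%, 34.9% and 25.3% in HFD+STZ, and 22.4%, 12.1%, 21.6% and 16.3% in METTL3. Chow replicate 3 was the lowest of all libraries, and the diabetic groups overlapped through HFD+STZ replicate 1 and METTL3 replicate 1. The summed leiomodins per kilobase were 4.87, 4.90 and 12.2 times the summed tropomodulins on chow, with the high value again in replicate 3. The ratio was 4.54 to 5.70 in HFD+STZ and 5.98 to 6.33 in METTL3, which did not overlap. These sums are mostly Lmod2 and Tmod1, and their difference was not tested.

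**Figure D3:**
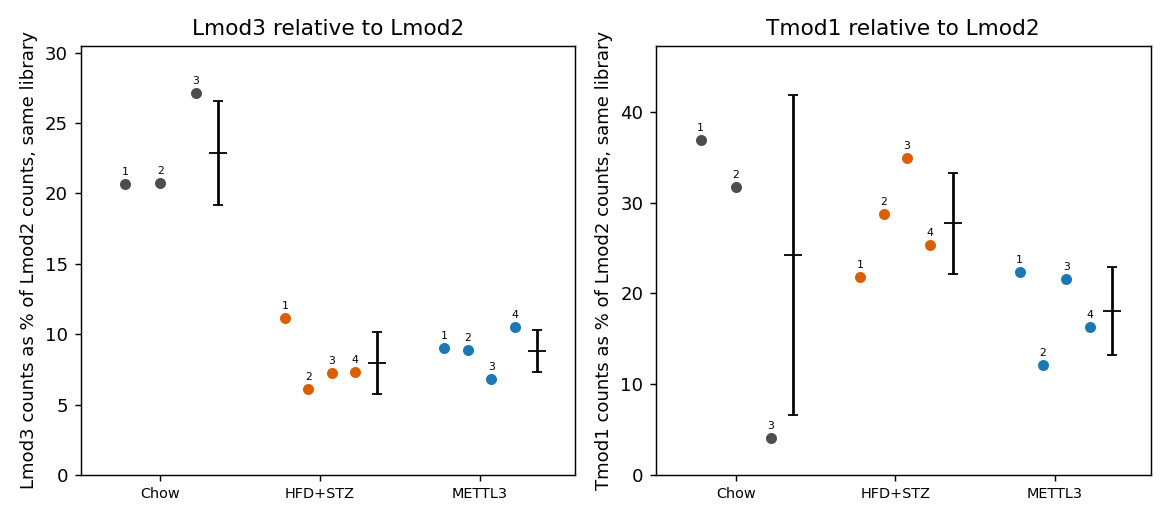
Counts of Lmod3 (left) and Tmod1 (right) as a percentage of Lmod2 counts in the same library (y axes, linear from 0), with points numbered by replicate and bars for the group mean and SD. Lmod3 is at 20.7% or more of Lmod2 in every chow heart and at 11.2% or less in every diabetic heart, while the Tmod1 panel has its low point, 4.04%, in chow replicate 3.

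The genes closest to Lmod3 in pattern were sought among 12240 tested genes with a mean of at least 1 CPM. Predicted symbols (Gm with digits, or ending in Rik) were left out of them. The measure is the mean absolute difference of log2 CPM over the 11 libraries after each gene is centred on its own mean. For the median gene it was 0.55. Itgb6, an integrin subunit that binds and activates latent TGF-beta, was closest at 0.11. It measured 11.6 to 14.6 CPM on chow, 4.80 to 7.32 in HFD+STZ and 5.77 to 7.71 in METTL3. Ppat, the enzyme that commits precursors to purine synthesis, followed at 0.13, with 21.8 to 24.9 CPM on chow, 10.9 to 14.5 in HFD+STZ and 9.86 to 14.3 in METTL3. Both kept the chow hearts apart from all diabetic hearts, as Lmod3 did.

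The next were the chemokine gene Cxcl16 (0.21), Mlxipl, a glucose-responsive transcription factor also called ChREBP (0.21), and the endocytic adaptor Dab2 (0.22). Mlxipl was at 16.2 to 21.3 CPM on chow and 7.95 to 12.5 CPM in HFD+STZ. Cxcl16 and Dab2 overlapped between chow and HFD+STZ through HFD+STZ replicate 1, at 17.3 and 40.7 CPM. These genes were picked for likeness over all samples, which includes the contrast that picked Lmod3, so the likeness has no test. The nearest member was Lmod1, at 0.46 and in place 2911. Tmod1 was the farthest, at 0.87.

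For Tmod1 the same measure named Dapk1, a death-associated kinase (0.17), Dnaja4, a co-chaperone (0.19), and Ncoa4, the receptor that delivers ferritin for degradation (0.19), then Ubxn2a and Pdxdc1. All of the first 3 had their lowest value in chow replicate 3: 4.39 CPM against 33.1 and 37.6 for Dapk1, 6.08 against 45.4 and 53.9 for Dnaja4, and 2.98 against 31.8 and 45.0 for Ncoa4. So this likeness largely repeats the drop in 1 library. Within the family the closest pairs were Lmod1 and Tmod3 (0.23), then Tmod2 and Tmod3 (0.26).

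**Figure D4:**
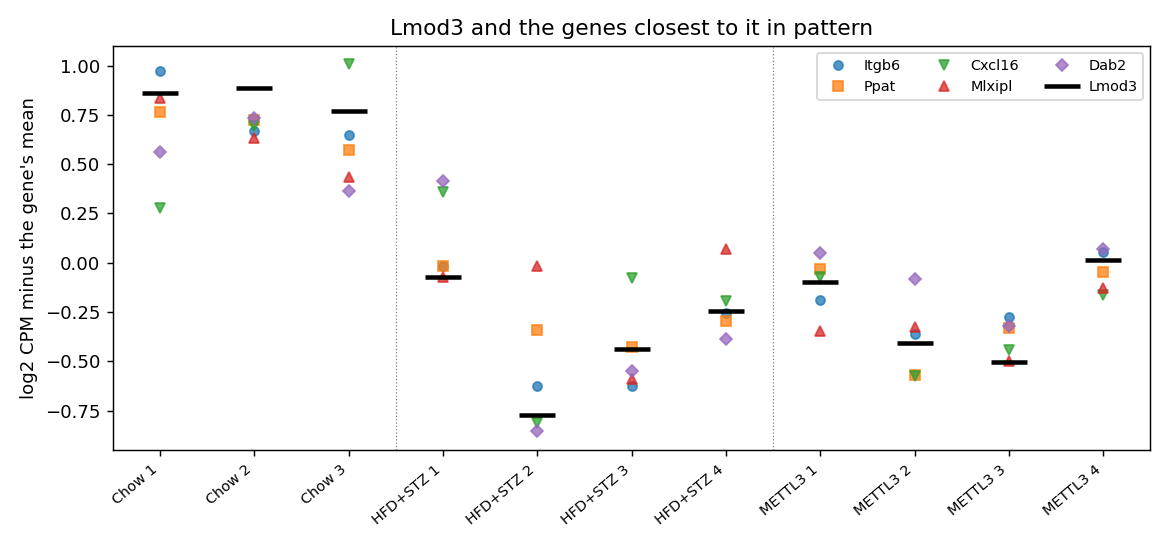
Log2 CPM minus the gene's own mean over the 11 libraries (y axis) for Lmod3 (black bars) and the 5 genes closest to it, by library (x axis). Lmod3, Itgb6, Ppat and Mlxipl are highest in the 3 chow libraries, and Cxcl16 and Dab2 scatter more, with HFD+STZ replicate 1 near the chow libraries.

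The thin filament itself gave no call. Of its 16 genes (actins, tropomyosins, troponins and nebulins) 14 were tested, and 0 passed in any comparison. Over all genes 0.168% were called for HFD+STZ against chow, 0% for METTL3 against HFD+STZ and 3.20% for METTL3 against chow. At these shares 0 of 14 says little about the list. The median log2 fold change of the 14 genes was -0.30 for HFD+STZ against chow, 0.10 for METTL3 against HFD+STZ and -0.34 for METTL3 against chow. Without chow replicate 3 the first and last of these were 0.08 and 0.18, so their sign rests on that library, where the 16 genes summed to 43520 CPM against 19270 and 19480 in the other chow hearts. The smallest p values between METTL3 and HFD+STZ were those of Tpm3, a slow-muscle and cytoskeletal tropomyosin (-1.11, SE 0.33, adjusted p = 0.373), and Actc1, cardiac actin (0.42, SE 0.17, adjusted p = 0.515), with Neb, the nebulin gene, at -0.49 (SE 0.40). Tpm3 was at 10.6 to 34.3 CPM in HFD+STZ and 8.23 to 11.4 CPM in METTL3. Actc1 was at 6960 to 9363 and 10430 to 11990 CPM, without overlap. Between these groups 9.57% of all genes did not overlap in either direction.

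Among 20 genes that act at filament ends or in actin turnover, 2 were called, both higher in METTL3 than on chow, a direction in which 1.82% of all genes were called. Cfl2, the muscle cofilin that severs and depolymerises actin filaments from the pointed end, rose by 0.96 on the log2 scale (SE 0.18, edgeR adjusted p = 0.0250), from 224 ± 7.14 CPM on chow (SD, n = 3) to 436 ± 43.3 CPM in METTL3 (SD, n = 4). Dstn, which encodes destrin and belongs to the same family, rose by 0.90 (SE 0.20, edgeR adjusted p = 0.0365), from 123 ± 8.63 to 229 ± 34.8 CPM. All METTL3 hearts were above all chow hearts for both, as they were for 10.5% of all genes. Both calls ended without chow replicate 2 (adjusted p = 0.0718 for Cfl2 and 0.0998 for Dstn) or without METTL3 replicate 1, 3 or 4. They also ended with the code range as a covariate (adjusted p = 0.161 and 0.153) and with the groups compared alone (0.0649 and 0.0872). Dstn also lost its call without chow replicate 1, HFD+STZ replicate 3 or 4, or METTL3 replicate 2. Cfl1, another cofilin gene of this list, was lower in METTL3 than on chow (-1.13, SE 0.34, edgeR adjusted p = 0.0838) and was not called. Its METTL3 hearts, at a mean of 70.0 CPM, all lay below its chow hearts, at a mean of 152.8 CPM. The same held for 8.26% of all genes. Of the 20 genes, 12 were above 0 and 8 below 0 in METTL3 against chow.

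HFD+STZ hearts held intermediate means, 312 ± 57.6 CPM (SD, n = 4) for Cfl2 and 177 ± 36.6 CPM (SD, n = 4) for Dstn. The log2 fold changes were 0.48 and 0.53 against chow, with edgeR adjusted p of 0.342 and 0.340, and 0.48 and 0.37 for METTL3 against HFD+STZ, with adjusted p of 0.428 and 0.569. None of these passed. The medians of the 20 genes were 0.04, 0.01 and 0.05 in the order HFD+STZ against chow, METTL3 against HFD+STZ and METTL3 against chow.

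Nemaline myopathy genes and stabilisers of nebulin and Lmod3, 11 in number, gave 1 call, Cfl2 again. It was in METTL3 against chow, where 3.20% of all genes were called. Klhl40, whose protein binds and stabilises Lmod3 and nebulin, measured 17.1 ± 1.94 CPM on chow (SD, n = 3), 15.2 ± 3.56 in HFD+STZ (SD, n = 4) and 11.8 ± 4.42 in METTL3 (SD, n = 4). Its log2 fold change of METTL3 against HFD+STZ was -0.36 (SE 0.26, adjusted p = 0.725). Klhl41, a relative with a like role, was at 55.5 ± 8.30, 74.3 ± 11.8 and 72.7 ± 9.48 CPM. The medians of this list were 0.22, -0.25 and -0.15. With a library left out they ran from -0.07 to 0.40, from -0.34 to -0.04 and from -0.37 to 0.08. The sign of the first turned without chow replicate 3 and that of the last without chow replicate 1, and the first was -0.17 with the code range as a covariate.

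Of the SRF, myocardin and MEF2 regulators, 13 of the 15 symbols listed were in the table and tested, and 0 were called in any comparison. The absent symbols, Mrtfa and Mrtfb, are other names of Mkl1 and Mkl2, which were tested. Over all genes 0.168%, 0% and 3.20% were called, in the same order of comparisons. The median log2 fold changes of the 13 regulators were 0.33, -0.02 and 0.21 in that order. The first and last were 0.04 and -0.07 with the code range as a covariate, and with a library left out they ran from 0.10 to 0.40 and from 0.09 to 0.36. Mef2a, a MEF2 factor of heart muscle, had the smallest p between METTL3 and HFD+STZ (0.41, SE 0.14, edgeR adjusted p = 0.439). Its METTL3 hearts, at 196.4 to 224.9 CPM, lay above the HFD+STZ hearts at 144.9 to 164.7 CPM. Between these groups 9.57% of all genes did not overlap in either direction. Mef2c differed by 0.33 (SE 0.15, adjusted p = 0.544). Gata4 differed by -0.38 (SE 0.32, adjusted p = 0.773).

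**Figure D5:**
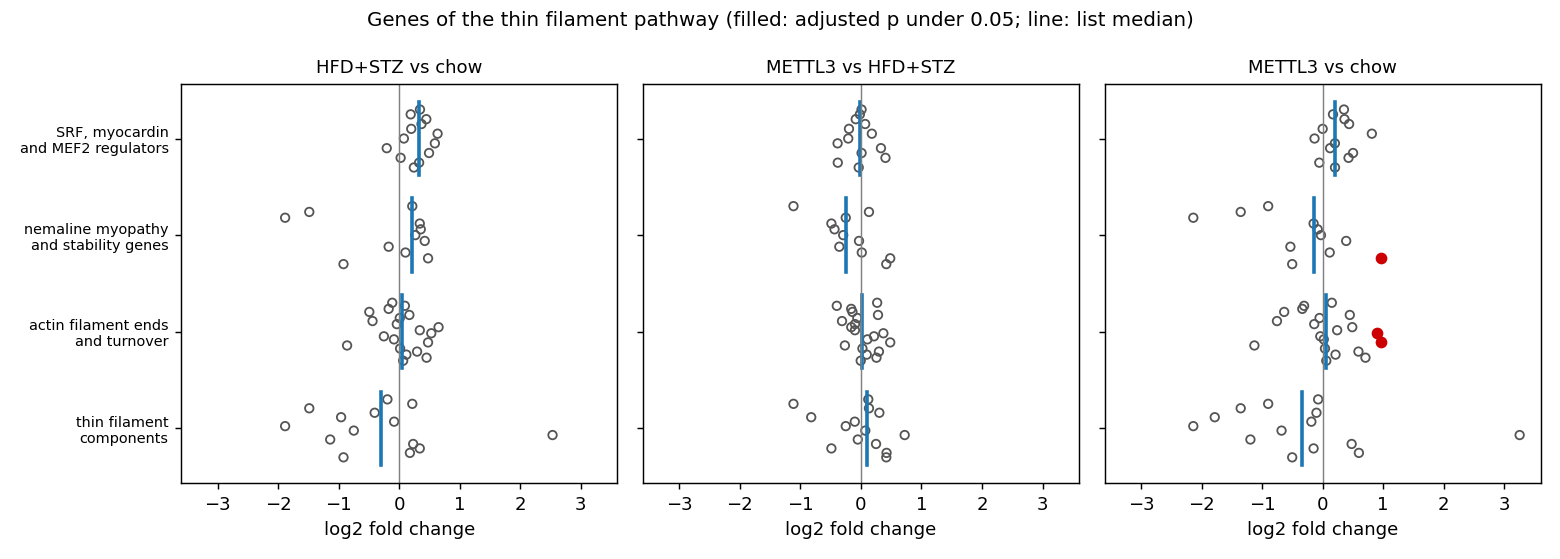
Log2 fold change (x axis) of each tested gene of the 4 pathway lists (rows) in the 3 comparisons, where filled red points passed an adjusted p of 0.05 and the blue line is the list median. The filled points, Cfl2 in both of its lists and Dstn, are in METTL3 versus chow at 0.96 and 0.90.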

How the data were processed

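The data were deposited counts per gene, whole numbers for 11 heart libraries in 1 table, and all its sample columns were used. Per the labels' protocols, RNA was extracted with Trizol, depleted of ribosomal RNA with a RiboZero kit and built into libraries with a NEB kit. FastQC, Salmon and mm10 appear in the submitters' processing notes without versions, and the sources used here do not give the strand setting. The deposited coordinates and gene lengths of the members equal those of GENCODE release M21.

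The test was that of edgeR 4.0.16 (R 4.3.3): filterByExpr (minimum count 10, minimum total 15), TMM scaling, 1 model of group means over all 11 libraries, the quasi-likelihood test and Benjamini-Hochberg adjustment over 14862 genes at 0.05. Standard errors come from the coefficient and its F statistic, and intervals are 95%. CPM uses TMM library sizes, log2 CPM a prior count of 2. DESeq2 1.42.0 and limma 3.58.1 (voom with quality weights) were among the alternatives, with other scalings, no filter, the groups compared alone, the replicate number as a block, the code range and each library left out. The procedure was also tested on simulated counts, 3 times per comparison. Randomly picked genes were changed by log2 1 or 2, and all others had the same mean in every group. No simulated library was made to stand apart as chow replicate 3 did. In HFD+STZ against chow, METTL3 against HFD+STZ and METTL3 against chow the procedure recovered 13.7%, 25.7% and 14.7% of log2 changes of 1. For log2 changes of 2 it recovered 70%, 75% and 71.3%. False calls were 1.95%, 7.36% and 4.09% of all calls. These shares hold for the simulated setting and depend on how many genes were changed in it. Most simulated log2 changes of 1 were thus missed, and a gene not called may still differ.

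The text names all members, the list genes past the threshold or else the 3 smallest p between METTL3 and HFD+STZ, and the 5 genes closest to Lmod3. Klhl40, Klhl41, Casq1, Tnnt1, Tpm2, Cfl1, Tnni1, Myl7 and the genes closest to Tmod1 were named after their values were seen. The members and lists were chosen with earlier results of these data known. Deviations of same-numbered libraries from their group means correlated at -0.23 to 0.16 over 10 pairs, above 0.1 in 2 of them. With so few libraries per group this cannot exclude that the numbers pair samples. The fit with the replicate number as a block is given below. No pair of libraries of a group agreed within sampling noise.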

Additional observations from a re-analysis of the deposited data

How the results depend on the processing

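Over 22 settings, 285 of 301 alternative values of single members in the tested contrasts kept their direction and their side of the threshold, and 9 changed sign. For HFD+STZ against chow, which has no test here, 138 of 147 kept their sign. The 9 that did not were those of Lmod1 (-0.17, range -0.42 to 0.04), Tmod1 (0.40, range -0.12 to 0.85), Tmod2 (0.05, range -0.06 to 0.19) and Tmod3 (-0.09, range -0.47 to 0.29). The cause of changes was not tested. Genes called for HFD+STZ against chow (25) numbered 307 with DESeq2, 1954 with limma voom, 190 with no filter, 0 with the groups compared alone (1369 at an unadjusted p under 0.05), 1 with the code range as a covariate, 40 with library sizes over all genes (chosen after seeing the data), 493 without chow replicate 3 and HFD+STZ replicate 1 together, and 1 to 215 with a library left out. For METTL3 against chow (475) they numbered 1509, 3078, 747, 54, 1, 476, 1258 and 34 to 750 in that order. For METTL3 against HFD+STZ (0) they numbered 139 with DESeq2, 395 with limma voom, 403 without the pair of libraries and 0 with any library left out, where 811 to 2602 genes had an unadjusted p under 0.05. With the replicate number as a block, 2 genes were called for HFD+STZ against chow, 5 for METTL3 against chow and 0 for METTL3 against HFD+STZ, and Lmod3 in METTL3 against chow was at -1.16 (adjusted p = 0.0755), which left 0 of 7 members called. With the block the adjusted p of Cfl2 and of Dstn in that contrast was 0.121, so both calls ended.

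Lmod3 in METTL3 against chow was -0.81 with the code range, and -1.17 to -0.99 with a library left out, with adjusted p from 2.305e-05 to 0.174 over the alternatives. Members called there numbered 2 with limma voom, 0 with the code range and 0 to 1 with a library left out. For METTL3 against HFD+STZ 1 member was called with limma voom and 1 without the pair of libraries. For HFD+STZ against chow, not tested, Lmod3 was -0.93 and Tmod3 0.29 with the code range, and Tmod3 -0.47 without the pair. The sign changes in the tested contrasts were those of Lmod1 in METTL3 against chow (-0.012 without chow replicate 3, -0.015 without METTL3 replicate 3, -0.010 without the pair, and -0.015 to 0.22 with a library left out), Lmod2 in METTL3 against HFD+STZ (0.025 leaving out HFD+STZ replicate 4, 0.018 leaving out METTL3 replicate 2, range -0.12 to 0.025), Tmod4 in the same contrast (0.079 without METTL3 replicate 1, 0.03 without METTL3 replicate 3, range -0.18 to 0.079), and Tmod1 in METTL3 against chow (0.20 without chow replicate 1, 0.03 without chow replicate 2, range -0.77 to 0.20). Lmod1 and Tmod2 had at most 197 and 166 counts per library, but their standard errors were at most 0.26 and 0.24, against 0.23 for Tmod3 on 770 to 1773 counts.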
